A study of Mus musculus with 16 samples.

Results

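Wnt signalling starts when a secreted Wnt ligand binds a frizzled receptor and an Lrp coreceptor on the surface of a cell. The genes described here are 10 mouse genes of that step: the ligand gene *Wnt2*, 6 frizzled receptor genes (*Fzd1*, *Fzd2*, *Fzd4*, *Fzd5*, *Fzd7* and *Fzd8*), the coreceptor genes *Lrp5* and *Lrp6*, and *Axin2*, which is commonly read as a target of the pathway. They were given by name, were found through their Ensembl identifiers, and are 10 of the 55604 genes listed in the data. All 10 passed the filter on low counts that left 16861 genes to test.

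RNA was measured in 2 subsets of tumor-associated macrophages (TAMs) from the peritoneal cavity of C57BL/6 mice bearing ID8 tumors. ID8 is a line of mouse ovarian cancer cells that seeds the peritoneum and fills it with ascites. Per the study's methods, female mice 6 to 8 weeks of age received ID8 cells in the peritoneal cavity, and the cells for RNA were taken 6 to 7 weeks after inoculation. Tim-4+ TAMs were bound with a PE-labeled antibody to Tim-4 and magnetic beads against PE, and Tim-4- TAMs were enriched from the remaining cells with beads against F4/80, a macrophage surface protein. Both groups come from mice with the tumor, no allele or drug is named for either, and they differ in how the cells were selected. The labels number 4 pairs (793, 784, 783 and 779), each with 1 library per subset (n = 4 in each subset), and do not say whether mice were pooled. A supplementary table of the study seems to list the pairs in another order, so the numbers may be crossed between pairs, while each pair keeps its own 2 libraries. If the pairs are not separate animals, the p-values measure only the spread between these samples. Single values are given below in the pair order 793, 784, 783 and 779, as CPM, which are counts brought to a common library size with edgeR's TMM factors.

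Wnt proteins are lipid-modified and need a dedicated carrier for release. When frizzled and Lrp are bound together, the complex that marks beta-catenin for destruction is held at the membrane, beta-catenin accumulates, and it works with TCF/LEF factors in the nucleus. Frizzled receptors also act without Lrp, in planar cell polarity and calcium pathways, and macrophages are known both to release Wnt ligands in damaged or tumor-bearing tissue and to respond to them.

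Each library held 53527928 to 69594245 counts on genes, so that 3 counts, the smallest number taken as detectable, stand for 0.0382 to 0.0630 CPM. This floor covers counting error only. *Timd4*, the gene of the selected protein, followed the labels in every pair, with 28683 to 87151 counts in the Tim-4+ libraries and 128 to 5669 in the Tim-4- libraries. Markers of macrophages were present in both subsets (summed level 9822 to 11583 CPM in the Tim-4+ libraries and 5213 to 7397 CPM in the Tim-4- libraries, for 8 genes). Some libraries stood apart. The Tim-4+ library of pair 783 had the lowest summed level of 10 residential macrophage markers in its subset (2953 CPM against 6595 to 8324), and the Tim-4- library of pair 793 had the highest in its own (1679 CPM against 733 to 940). Of 12 mesothelial, epithelial or ID8 markers, 11 were lower in Tim-4+ TAMs, and *Cdh1* did not pass the test. Their summed level was highest in the Tim-4- libraries of pairs 779 (2218 CPM) and 784 (1420 CPM). Of 8 markers of monocyte-derived cells 7 were lower, and of 10 residential markers 9 were higher. Over all tested genes, 8.43% were lower and 8.97% higher. The residential list holds *Timd4*, and the study had reported several genes of both lists as differing between these subsets. These counts are therefore no independent check of the samples. Because these are bulk samples, fewer cells of a type and less RNA per cell cannot be told apart.

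The subsets were compared gene by gene with edgeR (a quasi-likelihood F test with the pair as a block, p adjusted by Benjamini and Hochberg over all tested genes). The 10 genes were chosen with earlier results of these data known, so the counts below describe the list and are not a test of it. Of the 10 genes, 6 differed between the subsets past the threshold, an adjusted p under 0.05, against 17.4% of all tested genes. *Wnt2*, *Fzd1*, *Fzd4* and *Fzd8* were higher in Tim-4+ TAMs and *Fzd2* and *Fzd5* were lower, against 8.97% of all genes higher and 8.43% lower. *Fzd7*, *Lrp5*, *Lrp6* and *Axin2* did not pass the test. All 6 genes had an unadjusted p under 0.05 in the same direction with any 1 pair left out, while the adjusted p of all but *Wnt2* rose past the threshold without pair 779 or pair 784. With the pairing left out of the fit, *Wnt2* alone was past the threshold (edgeR adjusted p 0.0490), and the other 5 had adjusted p values of 0.0653 to 0.144. The 2 subsets did not overlap for 3 of the 10 genes (*Wnt2*, *Fzd2* and *Fzd8*), and the same was seen for 12.8% of all tested genes. With a change of at least 2-fold as well, 4 of the 10 genes passed (9.59% of all genes), *Wnt2*, *Fzd1* and *Fzd8* as higher (3.8%) and *Fzd2* as lower (5.79%). The median was 0.12 over the log2 fold changes of these 10 genes and -0.00 over all tested genes.

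**Figure D1:**
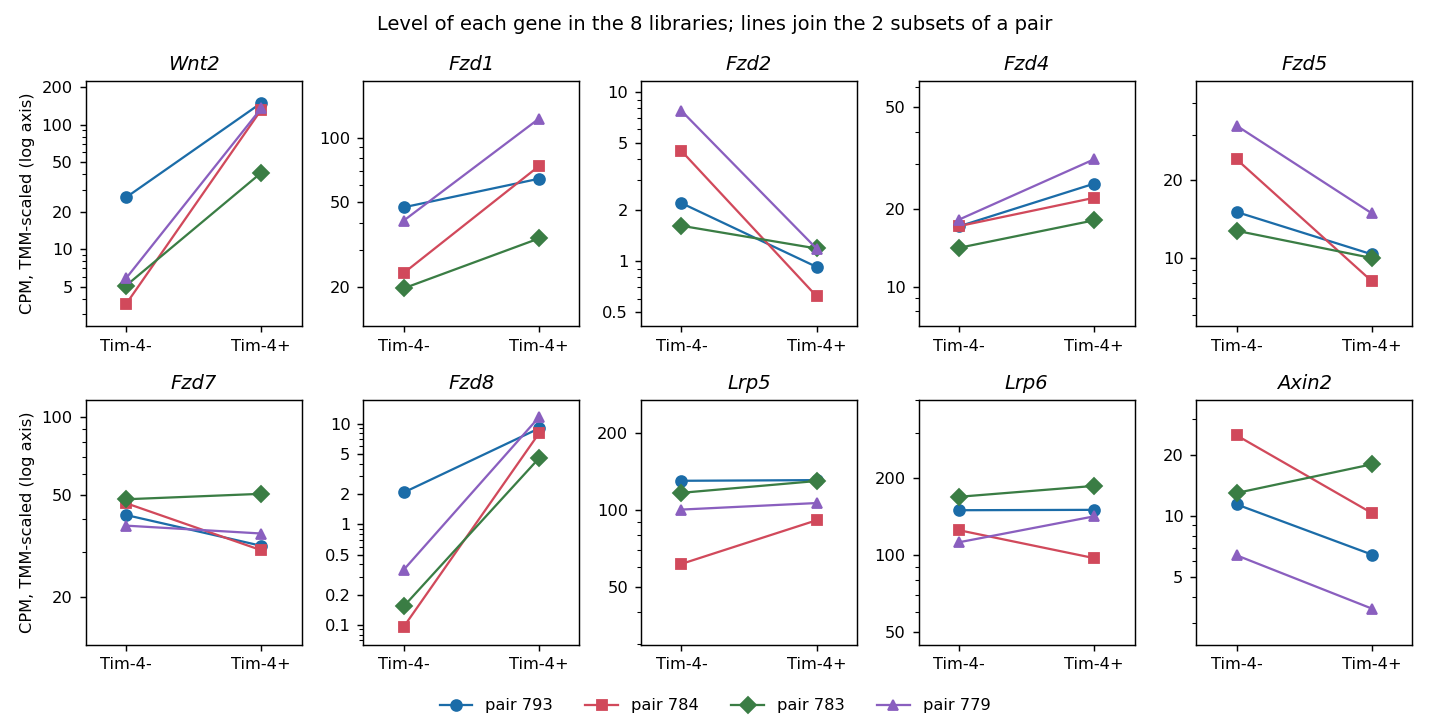
Level of each of the 10 genes in the 8 libraries, as TMM-scaled CPM on log axes, with a line joining the Tim-4- and the Tim-4+ library of each pair. *Wnt2* and *Fzd8* rise in every pair with no overlap between the subsets, *Fzd2* falls in every pair, and the lines of *Lrp6* go up in some pairs and down in pair 784.

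*Wnt2* encodes the only Wnt ligand of the 10 genes (ENSMUSG00000010797.6, chromosome 6, 17988940 to 18030585 on the minus strand, GRCm38). Its level was 149, 132, 41.1 and 135 CPM in the Tim-4+ libraries. In Tim-4- TAMs it was 26.0, 3.62, 5.09 and 5.83 CPM. Every Tim-4+ library was thus above every Tim-4- library, with the Tim-4+ library of pair 783 low in its subset and the Tim-4- library of pair 793 high in its own. The means were 114 ± 49.4 CPM in the Tim-4+ libraries and 10.1 ± 10.6 CPM in the Tim-4- libraries (SD, n = 4). *Wnt2* rose 13.9-fold, a log2 fold change of 3.79 (SE, the standard error, 0.49, 95% interval 2.61 to 4.98), with an edgeR adjusted p of 0.00875. It passed the test with any 1 pair left out (adjusted p 0.00352 to 0.0481 in the same test), and it missed the threshold when genes with almost no counts were also tested (adjusted p 0.0774).

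The start of *Wnt2* is shown because it is the gene with the lowest adjusted p of the 10. RefSeq's promoter table (GRCm38.p6), which gives 250 bases before and 50 after each gene's start, held 6 of the 10 genes. The windows were searched on both strands for AGATAA and TGATAA, the core of sites read by GATA factors, since *Gata6* is among the residential macrophage markers. Of 32851 windows of 300 bases, 18.6% held a match, and 2 of the 6 windows of these genes did (*Wnt2* and *Fzd1*). The *Wnt2* match lies among the 250 bases before the RefSeq start. It is also within the first exon of the GENCODE annotation, which starts further upstream. It is printed with its neighbouring bases, with the match in capitals. The window's bases upstream of the GENCODE start, at chr6:18030586-18030695, held none. Both are on the minus strand, 5′ to 3′.
Wnt2 upstream, chr6:18030586-18030695: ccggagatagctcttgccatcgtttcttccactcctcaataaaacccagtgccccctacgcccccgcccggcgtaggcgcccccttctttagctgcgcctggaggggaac
Wnt2 match, chr6:18030437-18030466: tcttttgaaactTTATCAgtgagtctcacc
A match of letters is a description of the sequence and says nothing of binding in these cells.

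*Fzd8* showed the largest difference of the receptors. The gene (ENSMUSG00000036904.6, chromosome 18, 9212163 to 9218136 on the plus strand, GRCm38) encodes a frizzled that binds Wnt together with Lrp6. It had 426, 399, 247 and 556 counts in the Tim-4+ libraries, which are 8.95, 7.98, 4.51 and 11.6 CPM. In Tim-4- TAMs it had 138, 7, 12 and 23 counts, which are 2.07, 0.0956, 0.153 and 0.353 CPM. The subsets did not overlap, and 3 of the 4 Tim-4- libraries held a few counts each while that of pair 793 stood above them. *Fzd8* rose 21.8-fold, a log2 fold change of 4.45 (SE 0.72, 95% interval 2.73 to 6.17), with an edgeR adjusted p of 0.0135. Without pair 779 or without pair 784 the adjusted p was 0.0646 in the same test, and it was 0.0825 with no filter on low counts.

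The 2 genes were also set beside the residential markers pair by pair. The Tim-4- level of *Wnt2* was 17.4%, 2.75%, 12.4% and 4.31% of the Tim-4+ level of the same pair, and that of *Fzd8* was 23.1%, 1.2%, 3.39% and 3.05%. The Tim-4- level of *Timd4* was 7.32%, 0.638%, 4.25% and 0.168% of the Tim-4+ level. Over the 10 residential markers, *Timd4* among them, the median was 29.8%, 12.7%, 35.4% and 10.8%. In all 4 pairs the percentages of *Wnt2* and *Fzd8* were below that median and those of *Fzd1* and *Fzd4* above it. Both were highest, among Tim-4- libraries, in that of pair 793, which also had the most *Timd4*. How far Tim-4+ cells left among the Tim-4- TAMs account for these levels was not tested.

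*Fzd1* encodes a receptor of the beta-catenin arm and was the frizzled with the highest level per length in Tim-4+ TAMs (ENSMUSG00000044674.6, chromosome 5, 4753839 to 4758035 on the minus strand, GRCm38). Its level was 64.3, 73.6, 33.8 and 123 CPM in the Tim-4+ libraries and 47.3, 23.3, 19.8 and 41.0 CPM in the Tim-4- libraries. It was higher in all 4 pairs, although the Tim-4+ library of pair 783 lay within the range of the Tim-4- libraries. The log2 fold change was 1.12 (SE 0.22, 95% interval 0.58 to 1.65), or 2.17-fold, with an edgeR adjusted p of 0.0212. Without pair 779 the adjusted p was 0.0853 in the same test, and without pair 784 it was 0.0957. The *Fzd1* window held 2 of the GATA core matches, and its 250 bases before the RefSeq start are printed 5′ to 3′ on the minus strand with the matches in capitals.
Fzd1 upstream, chr5:4758217-4758466: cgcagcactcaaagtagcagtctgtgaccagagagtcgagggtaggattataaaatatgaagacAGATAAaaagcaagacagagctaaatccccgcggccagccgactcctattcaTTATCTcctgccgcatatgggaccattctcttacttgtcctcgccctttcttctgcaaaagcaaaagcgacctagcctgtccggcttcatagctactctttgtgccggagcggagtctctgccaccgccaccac

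*Fzd4* encodes the receptor that also binds norrin, a ligand outside the Wnt family (ENSMUSG00000049791.4, chromosome 7, 89404355 to 89413134 on the plus strand, GRCm38). It was measured at 25.2, 22.2, 18.1 and 31.3 CPM in the Tim-4+ libraries and at 17.2, 17.2, 14.2 and 18.2 CPM in the Tim-4- libraries. The difference was small but had the same direction in 4 of 4 pairs, and the subsets touched only where the lowest Tim-4+ library met the highest Tim-4- library. Fitted over the pairs, the log2 fold change was 0.51 (SE 0.13, 95% interval 0.22 to 0.81), with an edgeR adjusted p of 0.0311. In the same test the adjusted p was 0.115 without pair 779, 0.0923 without pair 784 and 0.109 without pair 793. *Fzd4* also depended on the scaling. With libraries scaled by total counts, the log2 fold change of the median gene moved to -0.36, and that of *Fzd4* was 0.16 (adjusted p 0.376), still above that median.

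*Fzd2* and *Fzd5* were the receptors that were lower in Tim-4+ TAMs. *Fzd2* encodes a receptor often tied to Wnt5a (ENSMUSG00000050288.6, chromosome 11, 102604396 to 102608058 on the plus strand, GRCm38). It was measured at 0.924, 0.620, 1.19 and 1.19 CPM in the Tim-4+ libraries and at 2.2, 4.48, 1.62 and 7.73 CPM in the Tim-4- libraries. The subsets did not overlap, and the Tim-4- libraries of pairs 779 and 784 were well above the other two. *Fzd2* fell 3.52-fold, a log2 fold change of -1.82 (SE 0.46, 95% interval -2.89 to -0.74), with an edgeR adjusted p of 0.0354. Leaving out a pair gave adjusted p values of 0.140 (pair 779), 0.152 (pair 784) and 0.0806 (pair 793) in the same test.

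*Fzd5* encodes a receptor of both the beta-catenin and the Wnt5a arm (ENSMUSG00000045005.9, chromosome 1, 64730558 to 64737751 on the minus strand, GRCm38). Its level was 10.3, 8.10, 9.98 and 14.9 CPM in the Tim-4+ libraries and 15.1, 24.2, 12.7 and 32.7 CPM in the Tim-4- libraries. The Tim-4+ library was the lower in all 4 pairs, with an overlap at the Tim-4+ library of pair 779 and the Tim-4- library of pair 783. The log2 fold change was -0.90 (SE 0.21, 95% interval -1.40 to -0.40), a fall of 1.87-fold, with an edgeR adjusted p of 0.0298. Leaving out pair 779, 784 or 793 gave adjusted p values of 0.122, 0.11 and 0.0627 in the same test. *Fzd5* shares 1233 exon bases with *Gm38058* on the opposite strand, which held 26 counts over the 8 libraries. No source states if strand was used in counting, so reads in the shared bases cannot be assigned with certainty.

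Among Tim-4- libraries, *Fzd2* and *Fzd5* were highest in pair 779 and next in pair 784. The summed mesothelial, epithelial or ID8 markers had the same top libraries, at 471, 1420, 953 and 2218 CPM in the Tim-4- libraries and 116, 209, 418 and 249 CPM in the Tim-4+ libraries. Fibroblast markers (7 listed) and endothelial markers (6 listed) were also highest in those Tim-4- libraries, at up to 173 and 60.6 CPM in sum, of which *Dcn* gave 152 CPM and *Esam* 53.6 CPM in the library of pair 779. The fibroblast collagen genes *Col1a1*, *Col1a2* and *Col3a1* were instead highest in the Tim-4+ library of pair 783, and the endothelial gene *Kdr* in the Tim-4- library of that pair. The part of these other cells in the levels of *Fzd2* and *Fzd5* was not tested.

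**Figure D2:**
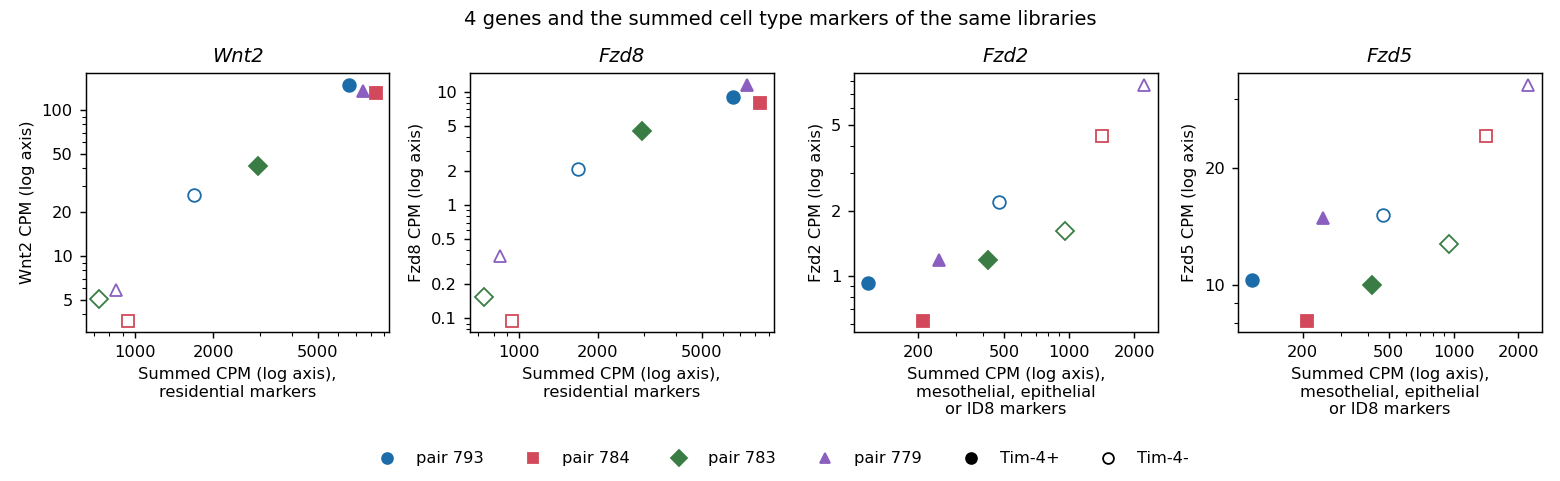
Level of 4 genes in each library (vertical axes, CPM) against the summed level of a marker list in the same library (horizontal axes, CPM, all axes log), with filled symbols for Tim-4+ and open symbols for Tim-4- libraries. *Wnt2* and *Fzd8* are plotted on residential macrophage markers and *Fzd2* and *Fzd5* on mesothelial, epithelial or ID8 markers, whose sum reaches 2218 CPM in the Tim-4- library of pair 779.

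*Fzd7*, which encodes a receptor of the beta-catenin arm known from stem and epithelial cells, did not pass the test (ENSMUSG00000041075.8, chromosome 1, 59482424 to 59486955 on the plus strand, GRCm38). It was measured at 31.6, 30.4, 50.4 and 35.3 CPM in the Tim-4+ libraries and at 41.6, 46.3, 48.0 and 37.9 CPM in the Tim-4- libraries. The subsets overlapped, and the Tim-4+ library of pair 783 was the highest of the 8. The log2 fold change was -0.26 (95% interval -0.57 to 0.05), with an edgeR adjusted p of 0.217. With libraries scaled by total counts it was -0.62 (adjusted p 0.0224), where the median of all genes was -0.36. The *Fzd7* window was the only one of the 6 with a TCF/LEF core, searched on both strands as CTTTGAA, as CTTTGAT, as CTTTGTA and as CTTTGTT, which 16.9% of all windows held. The bases around it are shown with the match in capitals, on the plus strand, because beta-catenin acts through such sites.
Fzd7 match, chr1:59482006-59482034: tccacagagaaAACAAAGcgcgctattgg

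The coreceptors did not pass the test. *Lrp5* (ENSMUSG00000024913.16, chromosome 19, 3584828 to 3686564 on the minus strand, GRCm38) and *Lrp6* (ENSMUSG00000030201.15, chromosome 6, 134446476 to 134566965 on the minus strand) encode the single-pass proteins whose tails recruit axin. *Lrp5* was measured at 131, 91.1, 130 and 106 CPM in the Tim-4+ libraries and at 130, 61.6, 117 and 100 CPM in the Tim-4- libraries. *Lrp6* was measured at 150, 97.3, 186 and 142 CPM in the Tim-4+ libraries and at 149, 125, 169 and 112 CPM in the Tim-4- libraries. Both overlapped widely, and pair 784 was the lowest Tim-4+ library for each. The log2 fold change of *Lrp5* was 0.20 (95% interval -0.08 to 0.48, adjusted p 0.286) and that of *Lrp6* was 0.03 (95% interval -0.28 to 0.34, adjusted p 0.904) in edgeR. The sign of both depended on the scaling: with total counts it was -0.16 for *Lrp5* and -0.33 for *Lrp6*, both above the median of all genes there (-0.36). The sign of *Lrp6* also turned without pair 779 (-0.072) and without pair 783 (-0.0096).

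*Axin2* encodes a scaffold of the destruction complex that is switched on by beta-catenin in many cells and damps the pathway (ENSMUSG00000000142.15, chromosome 11, 108920349 to 108950783 on the plus strand, GRCm38). It was measured at 6.47, 10.3, 17.9 and 3.51 CPM in the Tim-4+ libraries and at 11.4, 24.9, 12.98 and 6.41 CPM in the Tim-4- libraries. It was lower in Tim-4+ TAMs in 3 pairs and higher in pair 783, and the subsets overlapped. Its log2 fold change was -0.62 (SE 0.28, 95% interval -1.29 to 0.04), with an edgeR adjusted p of 0.170. Without pair 783 it was -0.99, with an adjusted p of 0.00518 in the same test, so this 1 pair decided the call. *Axin2* shares 209 exon bases with the antisense gene *Gm11670*, which held 15 counts over the 8 libraries, and its RefSeq window held no TCF/LEF core of the letters searched.

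**Figure D3:**
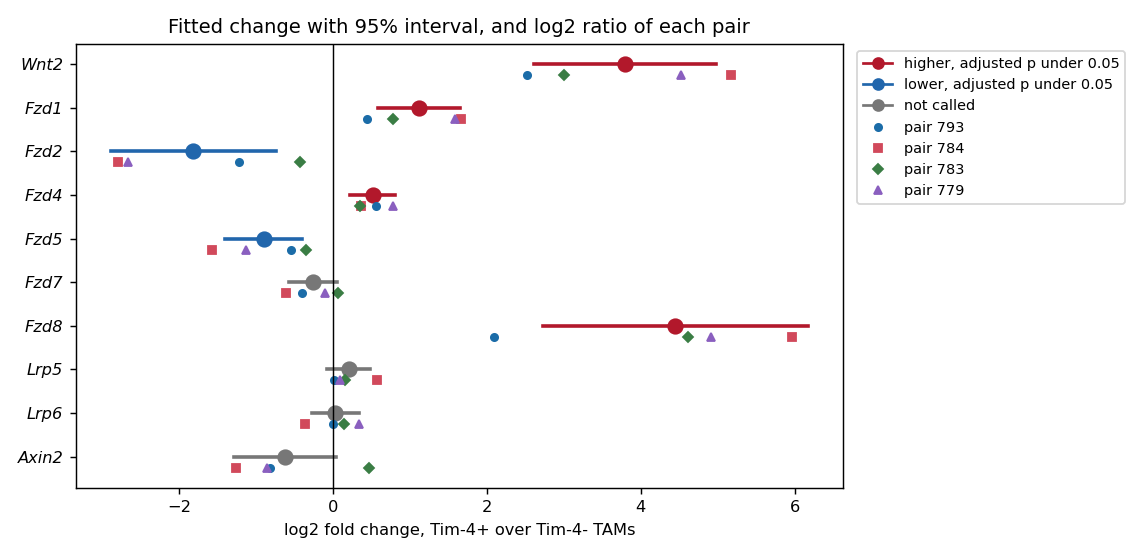
Fitted log2 fold change of Tim-4+ over Tim-4- TAMs for each gene with its 95% interval (large points and bars), and the log2 ratio of each pair (small symbols). The fits run from 4.45 for *Fzd8* to -1.82 for *Fzd2*, and the pair ratios of *Fzd7*, *Lrp6* and *Axin2* fall on both sides of 0.

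The size of the differences varied between pairs. In 5 of the 6 genes that passed the test, all but *Fzd4*, pair 784 had the largest difference and pair 779 the next. Among these 5, the smallest was in pair 793 for *Wnt2*, *Fzd1* and *Fzd8*, and in pair 783 for *Fzd2* and *Fzd5*. For *Wnt2* the log2 ratio ran from 2.52 in pair 793 to 5.17 in pair 784, and in the order of pairs used above those of *Fzd1* were 0.44, 1.66, 0.77 and 1.58. For *Fzd2* they were -1.22, -2.79, -0.44 and -2.67. *Timd4* also separated most in pairs 784 and 779, with log2 ratios of 3.77, 7.29, 4.56 and 9.19. The Tim-4- libraries of pairs 784 and 779 had the least *Timd4* left, and also the highest sums of mesothelial, epithelial or ID8 markers (1420 CPM in pair 784 and 2218 CPM in pair 779). The part of either in the size of the differences was not tested.

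Levels of different genes were compared only per length, as CPM per kilobase of exon. In Tim-4+ TAMs *Wnt2* had the highest mean, at 50.7 ± 21.9 CPM per kilobase (SD, n = 4). *Fzd1* (17.5 ± 8.78), *Lrp5* (11.7 ± 1.97), *Lrp6* (10.5 ± 2.67) and *Fzd7* (8.14 ± 2.03) followed, each overlapping the gene before it in the range of its libraries. All 4 libraries of *Fzd7* were above those of *Fzd4* (3.60 ± 0.83 CPM per kilobase). *Axin2*, *Fzd5* and *Fzd8* overlapped in range at means of 1.74, 1.56 and 1.38 CPM per kilobase, and *Fzd2* was below them all at 0.267. In Tim-4- TAMs *Lrp5*, *Lrp6*, *Fzd7* and *Fzd1* had the highest means (10.5, 10.2, 9.58 and 7.82 CPM per kilobase), with overlapping ranges. *Wnt2* came after them by mean at 4.50 ± 4.72 CPM per kilobase, with a range of 1.61 to 11.5 and its highest value in pair 793. That range overlapped those of *Fzd5*, *Axin2* and *Fzd4*, whose means were 3.06, 2.53 and 2.48 CPM per kilobase. *Fzd8* was last at 0.112, with every library below those of *Fzd2*.

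The share of each receptor in the frizzled transcripts was also computed. *Fzd1* made up 51.6% ± 13.2 of the summed frizzled level per length in Tim-4+ TAMs and 31.5% ± 9.31 in the Tim-4- libraries (SD, n = 4). *Fzd7* made up 27.1% ± 12.7 and 40.8% ± 10.4. The largest share was that of *Fzd1* in 3 Tim-4+ libraries and 2 Tim-4- libraries (pairs 793 and 779), and that of *Fzd7* in both libraries of pair 783 and the Tim-4- library of pair 784. The subsets overlapped in the shares of both genes. Shares of *Fzd5* (4.88% ± 0.86 against 12.5% ± 4.27), *Fzd8* (4.20% ± 0.84 against 0.434% ± 0.60) and *Fzd2* (0.862% ± 0.34 against 4.36% ± 2.59) did not overlap between the subsets, while *Fzd4* kept 11.2% ± 1.14 and 10.3% ± 0.67. The summed level was 32.6 ± 9.46 CPM per kilobase in Tim-4+ TAMs and 24.2 ± 3.55 in the Tim-4- libraries. No test was run on shares. Of the 10 frizzled genes of the mouse, *Fzd3*, *Fzd9* and *Fzd10* reached at most 9, 20 and 1 counts in any library and *Fzd6* had 0 counts in all 8, which allows a level of up to 0.0630 CPM.

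**Figure D4:**
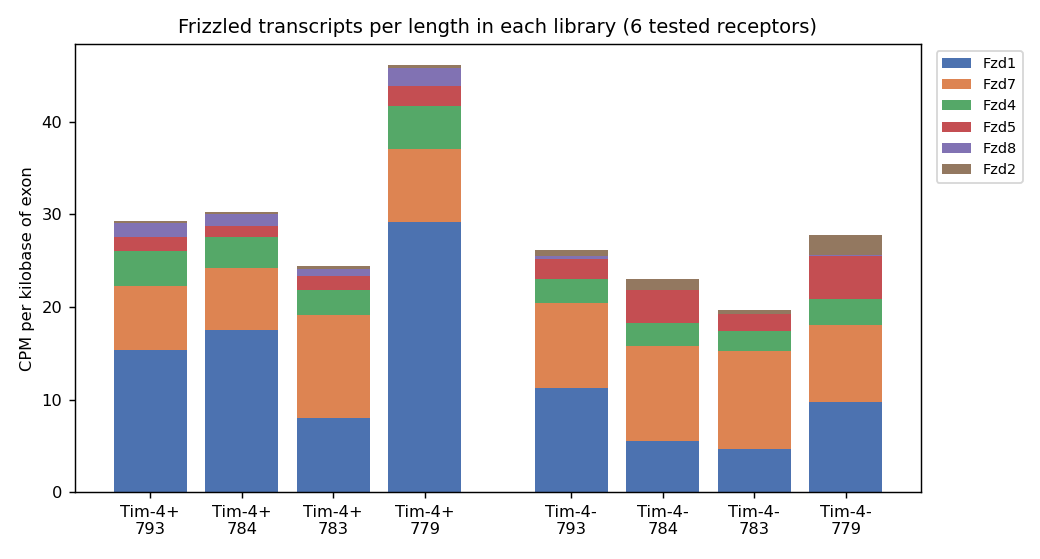
Level of the 6 tested frizzled genes in each library, as CPM per kilobase of exon, stacked. *Fzd1* makes up 33.0% to 63.2% of the total in Tim-4+ libraries and 23.9% to 43.1% in Tim-4- libraries, while *Fzd8* is visible mainly in Tim-4+ libraries.

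The 5 genes whose log2 level was most like that of *Wnt2* over the 8 libraries, out of the 8767 genes that averaged 10 CPM or more, were *Ccm2l* (Pearson r 0.995), *P2rx1* (0.993), *Alox15* (0.991), *Ifitm6* (0.991) and *Selp* (0.990). The 8 points are 4 pairs of 2 subsets, so the difference between the subsets enters each r, and these values only describe the libraries. *Alox15* was measured at 7140, 5898, 3929 and 8231 CPM in the Tim-4+ libraries and at 2892, 952, 1391 and 1171 CPM in the Tim-4- libraries, and shared with *Wnt2* its low Tim-4+ library of pair 783 and its high Tim-4- library of pair 793. *Fzd1* (r 0.855) was 580th and *Fzd4* (r 0.812) was 815th in that order. *Fzd8* had a mean under 10 CPM and was not placed.

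The rest of the pathway was read from lists of 102 further genes arranged by role, of which 74 were tested. In Tim-4+ TAMs 8 of them were higher (10.8%, against 8.97% of all genes) and 9 were lower (12.2%, against 8.43%). All 17 kept their direction under every alternative in which they were tested. The number of calls changed when a pair was left out, which also leaves fewer pairs to test, and the cause was not tested. Among all the pathway genes, the 10 described above included, 12 were higher and 11 lower in edgeR, and with pair 784 left out 1 was higher and 0 were lower (13 and 15 at an unadjusted p under 0.05). With pair 779 left out the numbers were 5 and 1, with pair 793 left out 6 and 1, and with pair 783 left out 11 and 24.

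Of 19 Wnt ligand genes, 11 were tested. *Wnt2* was the only one that rose, and *Wnt5a* and *Wnt10b* fell. *Wnt5a*, which encodes the main ligand of the planar polarity and calcium arms, was measured at 2.29, 2.30, 7.11 and 2.39 CPM in the Tim-4+ libraries and at 9.51, 23.1, 9.49 and 19.8 CPM in the Tim-4- libraries. The subsets did not overlap, and the Tim-4+ library of pair 783 was the highest of its subset. Its log2 fold change was -2.23 (SE 0.51), with an edgeR adjusted p of 0.0319. In the same test the adjusted p was 0.126 without pair 779, 0.123 without pair 784, 0.106 without pair 793 and 5.92e-05 without pair 783. It was 0.0568 without the pairing and 0.204 with no filter on low counts. The Tim-4- libraries of pairs 784 and 779, where *Wnt5a* was highest, also had the highest summed mesothelial, epithelial or ID8 markers. The part of these cells in its level was not tested. *Wnt10b* had few counts (0.0624 to 0.340 CPM in the Tim-4+ libraries and 0.629 to 1.99 CPM in the Tim-4- libraries). *Wls*, the carrier that releases Wnt proteins, was measured at 82.2 to 112 CPM and 98.3 to 140 CPM and did not pass the test. The 11 ligands had a median of -1.17 (log2 fold change), and of the 3 genes of ligand secretion and removal 0 passed in edgeR (2 at an unadjusted p under 0.05, and 1 in DESeq2).

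Among the other receptors, *Ryk*, which encodes a Wnt receptor with a kinase-like domain, was higher in Tim-4+ TAMs at 30.5 to 41.6 CPM against 16.2 to 30.1 CPM. Its log2 fold change was 0.70. With total-count scaling it was 0.34 (edgeR adjusted p 0.133), above the median of all genes there (-0.36) but not past the threshold. *Ptk7* and *Ror1*, receptors of the planar polarity and Wnt5a arms, were lower. *Ptk7* was measured at 3.59, 6.62, 9.56 and 5.72 CPM in the Tim-4+ libraries and at 19.3, 49.7, 14.6 and 59.2 CPM in the Tim-4- libraries, with a log2 fold change of -2.36 (SE 0.46). *Ror1* was measured at 0.378 to 2.32 CPM and 1.39 to 7.76 CPM, with a log2 fold change of -1.99 (SE 0.44). *Ptk7* was highest in the Tim-4- libraries of pairs 779 and 784, as *Fzd2* and *Fzd5* were. Of 9 genes of R-spondins, their receptors and receptor turnover, 6 were tested and 0 passed in edgeR (0 at an unadjusted p under 0.05, and 1, lower, in DESeq2). Without pair 783, 4 of the 6 passed as lower. The one with the highest mean CPM, the ubiquitin ligase gene *Znrf3*, which lowers frizzled at the surface, was measured at 15.6 ± 5.26 CPM in the Tim-4+ libraries and 16.5 ± 5.05 CPM in the Tim-4- libraries.

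*Sfrp1*, which encodes a secreted protein that binds Wnt ligands, was higher in Tim-4+ TAMs. It had 174, 146, 103 and 161 counts in the Tim-4+ libraries (1.88 to 3.65 CPM) and 41, 6, 4 and 1 counts in the Tim-4- libraries (0.0153 to 0.614 CPM). The subsets did not overlap, and the Tim-4- library of pair 793 was again the highest of its subset. Its log2 fold change was 4.66 (SE 0.74, adjusted p 0.0113, edgeR), at levels where a single count weighs heavily in the Tim-4- libraries. *Dkk2*, an inhibitor that binds Lrp, was also higher but had at most 41 counts in any library. The other 4 of 6 tested inhibitors did not pass, *Kremen1*, a receptor for Dkk proteins, among them (48.4 ± 21.9 against 59.6 ± 23.0 CPM).

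Of 21 genes of cytosolic signalling and the destruction complex, *Gsk3b* rose (log2 fold change 0.40) and *Dvl2* fell (-0.63), and their list's median was 0.02. *Ctnnb1*, the beta-catenin gene, was measured at 231 ± 28.4 CPM in the Tim-4+ libraries and 250 ± 29.7 CPM in the Tim-4- libraries and did not pass. Of 13 nuclear factors, *Tcf7l2* (log2 fold change 0.75) and the corepressor gene *Tle3* (0.60) rose, and *Lef1* fell (-1.99). *Tle3* lay at the threshold (edgeR adjusted p 0.0495, and 0.0507 with DESeq2 size factors). It passed in 4 of the 12 alternatives, and *Tcf7l2* in 9. *Tcf7l2* did not overlap between the subsets, at 21.0 to 34.5 CPM in the Tim-4+ libraries and 14.4 to 20.1 CPM in the Tim-4- libraries, whereas *Lef1* was low in both, at 0.105 to 0.694 CPM and 0.539 to 2.82 CPM. With total-count scaling the values were 0.04 for *Gsk3b*, 0.24 for *Tle3* and 0.39 for *Tcf7l2*, above the median of -0.36 but not past the threshold.

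Of 14 usual beta-catenin target genes, 11 were tested. *Lef1* was lower and 0 were higher in edgeR (1 at an unadjusted p under 0.05, and 1 in DESeq2), and the median log2 fold change was -0.62. In the lower direction 2 genes had an unadjusted p under 0.05, 3 passed in DESeq2, and 4 passed in edgeR without pair 783. *Axin2* is one of them. *Ccnd1*, which encodes cyclin D1 and had the highest mean CPM of them, was measured at 245, 282, 169 and 84.2 CPM in the Tim-4+ libraries and at 219, 200, 140 and 69.2 CPM in the Tim-4- libraries. It was higher in each pair but did not pass the test (log2 fold change 0.30, adjusted p 0.0933, edgeR), and its sign turned with total-count scaling (-0.06).

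In the planar polarity arm, 10 of 11 genes were tested, and those that passed went both ways. *Prickle1* and *Prickle2*, which encode cytoplasmic partners of the Vangl proteins, were higher in Tim-4+ TAMs, with log2 fold changes of 1.92 (SE 0.35) and 2.70 (SE 0.62). The subsets overlapped for both, and *Prickle2* had 145, 3, 67 and 27 counts in the Tim-4- libraries. Without pair 784 their edgeR adjusted p values were 0.0866 and 0.0914. *Prickle1* also missed the threshold without pair 793 (0.0623) and *Prickle2* without pair 779 (0.128), and each passed with either other pair left out. *Celsr1*, *Daam2* and *Vangl1* were lower, with log2 fold changes of -2.05, -1.37 and -1.17. *Celsr1* was measured at 3.44, 8.94, 16.5 and 9.34 CPM in the Tim-4+ libraries and at 18.7, 51.1, 27.0 and 53.2 CPM in the Tim-4- libraries. All 3 were highest in the Tim-4- library of pair 779 and next in that of pair 784, the libraries with the highest summed mesothelial, epithelial or ID8 markers. The part of these cells in the values was not tested.

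**Figure D5:**
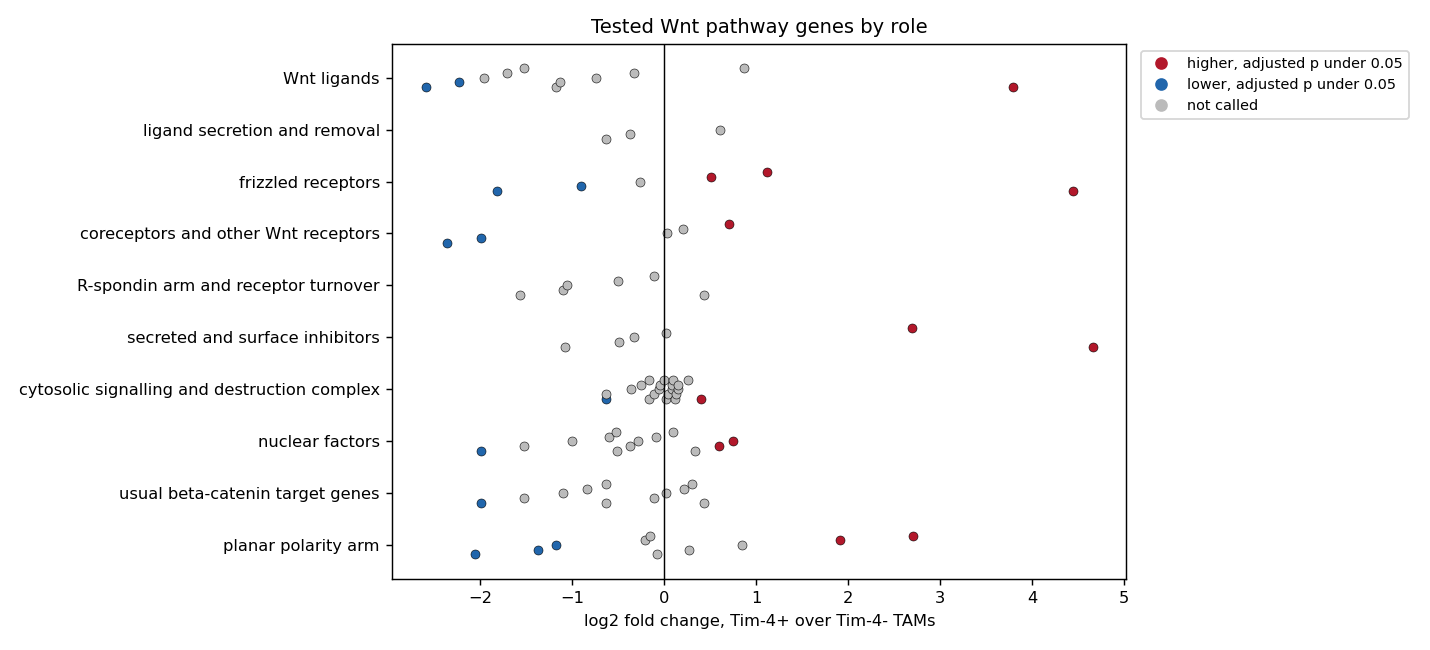
Log2 fold change of Tim-4+ over Tim-4- TAMs for the tested genes of each pathway list, with genes past an adjusted p of 0.05 in red (higher) or blue (lower). Cytosolic genes cluster near 0, while ligands, receptors, inhibitors and planar polarity genes spread from -2.59 (*Wnt10b*) to 4.66 (*Sfrp1*), with *Lef1* drawn in both lists that hold it.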

How the data were processed

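RNA-seq libraries of Tim-4+ and Tim-4- TAMs (8 libraries in 4 numbered pairs, 2 lanes each) were analysed. The authors deposited raw counts of reads per gene and lane, with no normalization. Per the labels the submitters used FastQC 0.11.3, TopHat2 2.0.13 and Cuffdiff 2.2.1 with GRCm38, and the methods text names hg19. The read counter is not given in the sources used here. Stranded kits were used, but strand use in counting is not stated. Lanes were summed. In 1 lane, listed by symbol and joined by order, 96.9% of comparable symbols matched. It belongs to the Tim-4- library of pair 793. With that lane left out, the log2 fold change was 3.80 for *Wnt2* and 4.48 for *Fzd8*. Symbols, coordinates and exon lengths came from GENCODE M21, which named 98.4% of identifiers.

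Genes that reached 10 counts in 4 or more libraries were tested with edgeR 4.0.16 (R 4.3.3), by its robust quasi-likelihood F test on TMM-scaled counts, blocked by pair number, and p-values were adjusted by Benjamini and Hochberg. The standard error is the log2 fold change divided by the root of F. Titles give the pair numbers. With subset means taken off, the r across genes was 0.277 to 0.498 within pairs and at most 0.0658 between pairs. The test was checked on simulated data for this comparison: of 200 genes among 16861 changed by a log2 fold change of 1.5, 61.5% were recovered (94.0% of the 116 above 5 CPM), and 7.52% of calls were false. Alternatives were other scalings, filters and lanes, no block, DESeq2 1.42.0, and each pair left out.

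The 10 genes and all lists were chosen with earlier results of these data known. Named besides the 10 genes are the pathway genes past the threshold with at least a 2-fold change and a mean of at least 1 CPM, the most abundant tested gene of each list, the 5 genes most like *Wnt2*, and *Timd4*. *Ryk*, *Wnt10b*, *Dkk2*, *Gsk3b*, *Dvl2* and *Tcf7l2* were named after their values were seen, since they complete counts, as were the frizzled genes below the filter. The cell type markers *Cdh1*, *Mrc1*, *Dcn*, *Esam*, *Col1a1*, *Col1a2*, *Col3a1* and *Kdr* were also named for their values. *Gata6* was named for the GATA search, and *Gm38058* and *Gm11670* for the exon bases they share.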

Additional observations from a re-analysis of the deposited data

Results flagged for a closer look

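In 3 of the 20 groups of 4 libraries examined (10 genes in 2 subsets), 1 library lay far from the other three by Dixon's test at the 95% level, where chance gives about 1 in 20. *Wnt2* in Tim-4+ TAMs was lowest in pair 783, at 41.1 CPM. *Wnt2* in Tim-4- TAMs was highest in pair 793, at 26.0 CPM. *Fzd8* in Tim-4- TAMs was highest in the same library, at 2.07 CPM. These are also the libraries with the lowest and the highest summed residential macrophage markers of their subsets (2953 CPM and 1679 CPM). Without pair 783 the log2 fold changes of *Wnt2* and *Fzd8* were 4.08 and 4.23, and without pair 793 they were 4.26 and 5.37, each past the threshold in edgeR.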

How the results depend on the processing

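Directions of the 6 genes that passed the test were kept under all 12 alternatives, with log2 fold changes of 3.33 to 4.26 (*Wnt2*), 0.76 to 1.35 (*Fzd1*), -2.28 to -1.47 (*Fzd2*), 0.16 to 0.56 (*Fzd4*), -1.26 to -0.68 (*Fzd5*) and 3.63 to 5.37 (*Fzd8*). Calls were less stable, and the cause was not tested. Without the replicate block, 1 of the 10 genes (*Wnt2*) was higher and 0 were lower in edgeR (4 and 2 at an unadjusted p under 0.05), with 147 and 85 of all genes and 1 and 1 of the pathway genes, against 1512 and 1421, and 12 and 11, with the pairing. With no count filter, 2 of the 10 genes were higher and 7 pathway genes were lower. With total counts per library, 789 genes were higher and 4906 lower, and 7 and 30 of the pathway genes. *Lrp5* and *Lrp6* then changed sign (-0.16 and -0.33). DESeq2 with the pair term gave 2323 lower genes and 17 lower pathway genes. With each pair left out in turn, the numbers ranged from 91 to 1608 higher and 67 to 1975 lower over all genes, from 1 to 4 and from 0 to 3 among the 10 genes (4 and at least 2 in each case at an unadjusted p under 0.05), and from 1 to 11 and 0 to 24 among the pathway genes. Each range had its lowest value without pair 784, shared with pair 779 for the 10 genes higher and with pairs 779 and 793 for those lower. *Lrp6* changed sign without pair 779 (-0.072) and without pair 783 (-0.0096). The lowest libraries of *Fzd8* and *Fzd2* had 7 and 31 counts, and each of the other genes had at least 169 counts in every library. Whether depth limited the calls was not tested. Markers of other cells and *Timd4* counts were unequal among the Tim-4- libraries, and no composition was estimated.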
